A study of Mus musculus with 8 samples.

Results

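The genes described here encode the enzymes that build N-glycans in the endoplasmic reticulum (ER) and remodel them in the Golgi apparatus, together with the enzymes that supply the mannose for this work. They were chosen by name as 41 gene symbols, and 41 of the 41 were among the 23337 symbols listed for every library. The libraries came from naive T cells sorted as CD62L+ and CD44low from mLNs and spleens of mice aged 4 weeks. The knockout (KO) mice carried CD4-cre and a conditional Trappc1 allele (Trappc1 cKO), and the other mice were labelled WT. CD4-cre expresses the Cre recombinase from regulatory sequence of Cd4 and acts during thymic development, before the CD4 and CD8 lineages part. No source used here says which part of Trappc1 is removed, or whether WT mice carried the Cre or the conditional allele alone. The groups are CD4 KO, CD4 WT, CD8 KO and CD8 WT, with 2 libraries each and 8 libraries in all. Whether replicates are separate mice is not stated, so a p-value here reflects spread between libraries, part of which may be technical.

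An N-glycan is assembled on the lipid carrier dolichol at the ER membrane, moved as a block onto asparagine residues of a growing protein by the oligosaccharyltransferase, and then trimmed of glucose while the protein folds. In the Golgi, mannosidases trim the chain further, and branching enzymes, galactosyltransferases, sialyltransferases and fucosyltransferases extend it. In T cells, N-glycans with many branches are known to limit clustering of the antigen receptor. Trappc1 is a core part of the TRAPP complexes, which act in vesicle transport to and through the Golgi where these enzymes reside, and the series title asks whether naive T cells need it for survival.

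Aligned sequence lay between 3.03 and 4.01 gigabases per library. Trappc1 stood at 30.5 and 32.8 TPM (transcripts per 1000000) in CD4 KO cells, against 78.7 and 55.0 TPM in CD4 WT cells, and the groups did not overlap. In CD8 cells it stood at 56.9 and 45.6 TPM in the KO, against 81.2 and 40.3 TPM in WT, so 1 WT library, replicate 2, was below both KO libraries. The log2 differences were -1.03 in CD4 cells (limma, adjusted p = 0.235) and -0.16 in CD8 cells (limma, adjusted p = 0.869), and the files give no value per exon. Cd4 and Cd8a were high in the libraries whose labels name them. CD8 WT replicate 2 stood apart in its markers. Summed over a marker list, it held 90220 TPM of erythroid genes (13.5 to 2143 TPM in the other libraries, 6 genes), 29030 TPM of myeloid genes (74.5 to 2196 TPM, 10 genes) and 25990 TPM of B cell genes (2017 to 15510 TPM, 10 genes). Its 8 T cell markers summed to 2432 TPM, against 3567 to 5726 TPM elsewhere. Among the CD4 groups, B cell genes summed to 7175 and 6636 TPM in the KO, against 15510 and 11430 TPM in WT, and myeloid genes to 1283 and 2196 TPM in the KO, against 230 and 74.5 TPM in WT. The part of these other cells in the differences below was not tested.

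The 41 genes were all expressed: each was above 0 TPM in 8 of 8 libraries, and 41 of 41 passed the filter of a mean of at least 1 TPM, as did 11786 genes in all. Their mean level over the 8 libraries ran from 2.13 TPM for Alg14 to 231 TPM for Dad1, with a median of 33.3 TPM on this length-corrected scale. Those of 100 TPM or more numbered 9, and 5 lay under 5 TPM. Summed over the 41 genes, the level was 2270 and 2129 TPM in CD4 KO cells, against 2555 and 2653 TPM in CD4 WT cells. It was 2589 and 2460 TPM in CD8 KO cells, against 2676 and 1901 TPM in CD8 WT cells, with the lowest sum in the library that stood apart. In these bulk samples, fewer cells of a type and less RNA per cell cannot be told apart.

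**Figure D1:**
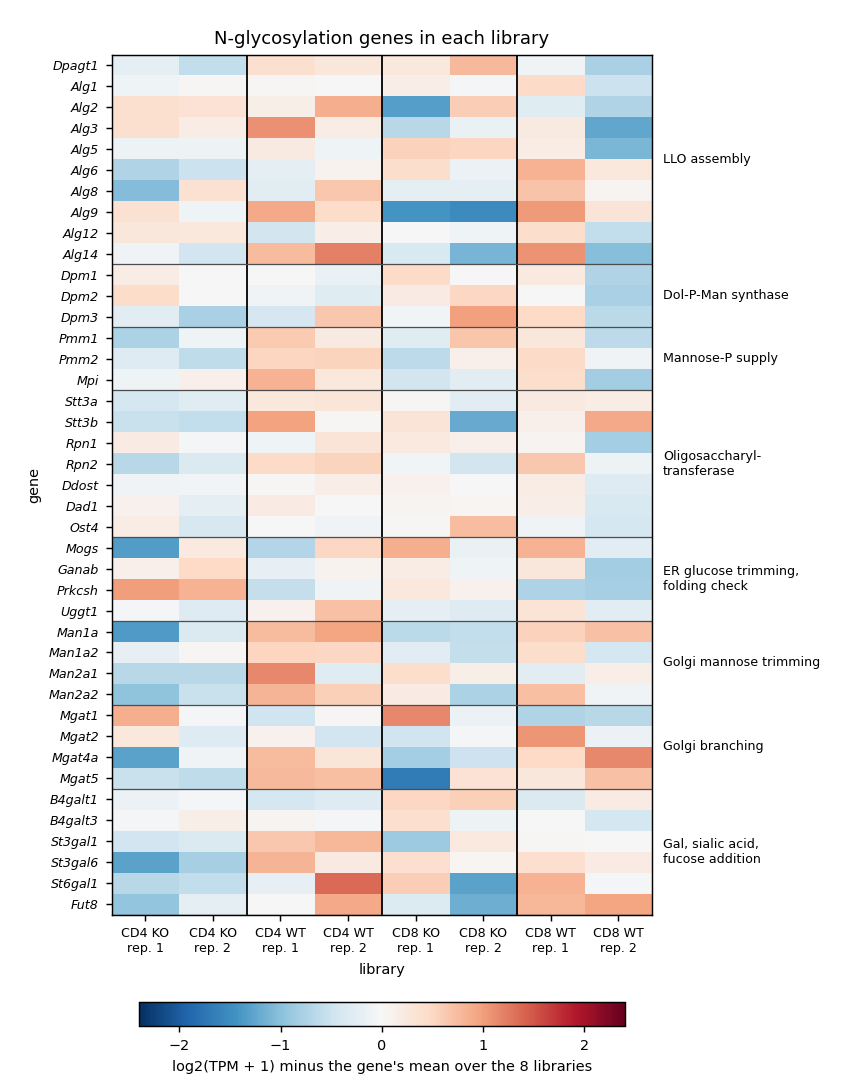
Level of each of the 41 genes (rows, grouped by role) in each of the 8 libraries (columns), as log2(TPM + 1) minus the gene's mean over the libraries; red is above and blue below that mean. All 4 Golgi mannosidase genes are bluer in the CD4 KO columns than in the CD4 WT columns, and CD8 WT replicate 2 holds the lowest value of 15 of the 41 genes.

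With the knockout, most of these genes were lower in naive CD4 T cells, but no single one passed the test. Of the 41 genes, 32 were lower and 9 higher in CD4 KO than in CD4 WT cells, where 58.0% of all genes tested were lower. The median log2 difference was -0.54 for the 41 genes and -0.16 for all genes tested. Both KO libraries lay below both WT libraries for 23 of the 41 genes and above them for 6, against 36.5% and 21.7% of all genes tested. When libraries were scaled by the median of ratios, which moved the median of all genes to 0.03, the median of the 41 became -0.37, with 18 below and 9 above, against 28.0% and 29.6% of all genes tested. Genes were called at an adjusted p under 0.05 from limma on log2(TPM + 1), and 0 of the 41 were called, against 0.713% of all genes. At an unadjusted p under 0.05, 1 was higher and 6 were lower, against 5.03% and 11.7% of all genes, so this count was near the background. The smallest absolute log2 difference among the called genes was 1.54, and the standard errors (SE) of the 41 genes ran from 0.27 to 0.82.

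In naive CD8 T cells the genes were split. Of the 41 genes, 20 were lower and 21 higher in CD8 KO than in CD8 WT cells, with a median log2 difference of 0.04, beside 0.05 for all genes. Both KO libraries lay below both WT libraries for 6 genes and above them for 8, against 19.1% and 23.0% of all genes. By limma 0 of the 41 were called, against 0.297% of all genes, and at an unadjusted p under 0.05 there were 4 higher and 4 lower, against 7.08% and 8.01%. The split depended on which CD8 WT libraries were used. With both kept and median-of-ratios scaling, 18 were higher and 23 lower, with a median of -0.04, beside -0.04 for all genes. Without CD8 WT replicate 1, which leaves the library that stood apart, the median was 0.34, beside 0.20 for all genes. Without CD8 WT replicate 2 the median was -0.39, beside -0.07 for all genes, with 30 of 41 lower, against 6370 of the 11786 genes tested. Both CD8 KO libraries lay below CD8 WT replicate 1 for 23 genes and above it for 9, against 4837 and 3821 of all genes tested.

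**Figure D2:**
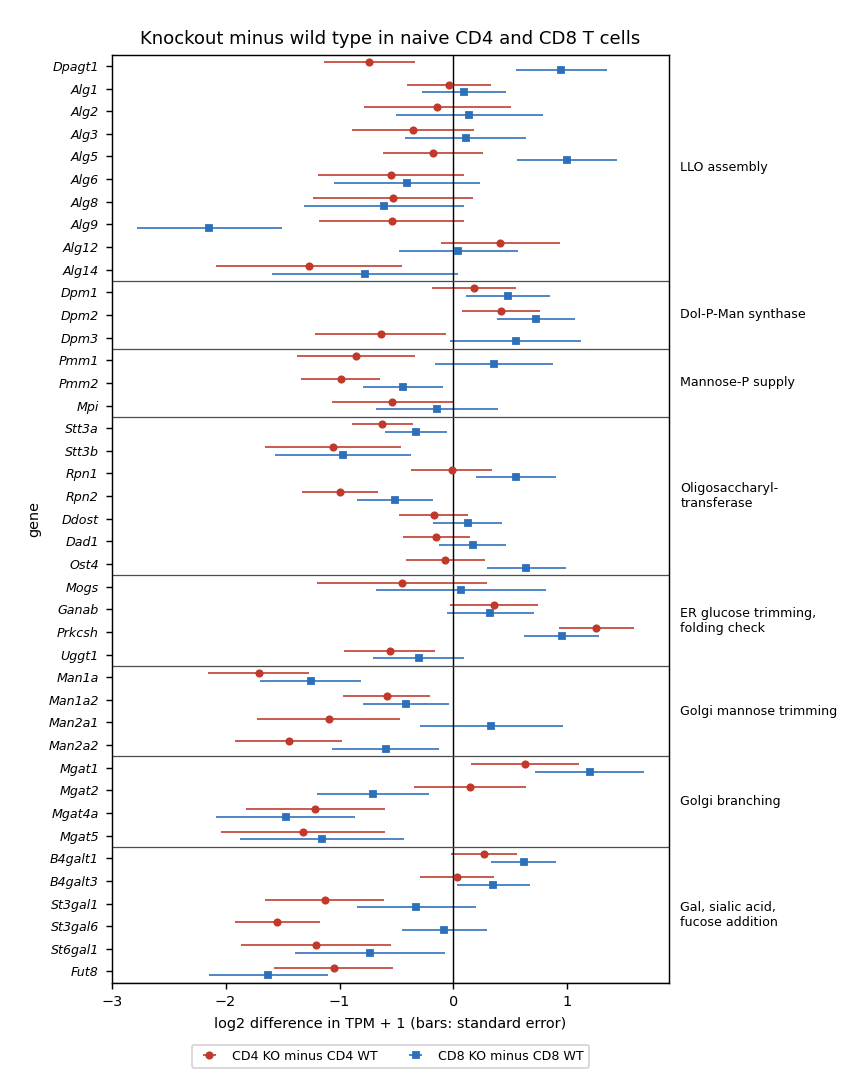
Log2 difference in TPM + 1 between KO and WT (points) with its standard error (bars) for each of the 41 genes, in CD4 cells (red circles) and CD8 cells (blue squares), grouped by role; the vertical line marks no difference. In CD4 cells 32 of 41 points lie left of the line, and in CD8 cells 20. Dpagt1 has points well apart on the opposite sides, while the CD4 point of Alg5 lies within its standard error of the line.

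The chain begins with 10 enzymes that assemble the lipid-linked oligosaccharide. In CD4 cells 9 of the 10 were lower in the KO, with a median of -0.44, where 58.0% of all genes tested were lower. With median-of-ratios scaling 6 of the 10 were lower, with a median of -0.26. In CD8 cells 4 of the 10 were lower, with a median of 0.07 that became -0.55 without CD8 WT replicate 2. Alg1, which adds the first mannose, was the most abundant, at 60.7 and 66.8 TPM in CD4 KO cells, against 66.5 and 64.7 TPM in CD4 WT cells. In CD8 cells Alg1 stood at 73.5 and 63.2 TPM in the KO, against 89.8 and 45.6 TPM in WT. Its KO and WT libraries overlapped in both cell types, and it shares its position with Fam86; since the strand setting of the counting is not given, reads of overlapping genes cannot be told apart.

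Dpagt1, which places the first sugar on dolichol phosphate and is the target of tunicamycin, was low with the knockout in CD4 cells and high in CD8 cells. It stood at 26.7 and 20.5 TPM in CD4 KO cells, against 41.6 and 38.0 TPM in CD4 WT cells, a log2 difference of -0.74 ± 0.40 (SE; limma, adjusted p = 0.389). In CD8 cells it stood at 37.5 and 54.6 TPM in the KO, against 29.6 and 17.9 TPM in WT, a log2 difference of 0.95 ± 0.40 (limma, adjusted p = 0.311), or 0.60 without CD8 WT replicate 2. Neither pair of groups overlapped. The CD8 effect minus the CD4 effect was 1.69 ± 0.57, the lowest p of the 41 genes for that difference (limma, unadjusted p = 0.0143), and it did not pass over all genes (adjusted p = 0.701).

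Alg5 makes the dolichol-phosphate glucose used for the last sugars of the chain. Its KO libraries also lay below WT in CD4 and above WT in CD8 cells, but in CD4 cells by a narrow gap. It stood at 35.7 and 35.7 TPM in CD4 KO cells, against 45.5 and 36.3 TPM in CD4 WT cells. Its CD4 log2 difference was -0.18 ± 0.44 (limma, adjusted p = 0.873), and 0.03 with median-of-ratios scaling. In CD8 cells it stood at 57.9 and 56.1 TPM in the KO, against 44.5 and 17.6 TPM in WT, a log2 difference of 0.99 ± 0.44 (limma, adjusted p = 0.329). The lower WT value was that of the library that stood apart, and without it the CD8 difference was 0.35. The difference between the effects was 1.17 ± 0.62 (limma, adjusted p = 0.701). Over all 41 genes 2 had an unadjusted p under 0.05 for the difference between the effects, Dpagt1 and the sialyltransferase gene St3gal6, against 6.95% of all genes, and 0 were called, as were 0.0% of all genes.

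Alg9, a mannosyltransferase of the ER lumen, had the lowest p of the 41 genes in CD8 cells. It stood at 0.235 and 0.153 TPM in CD8 KO cells, against 5.76 and 3.12 TPM in CD8 WT cells, a log2 difference of -2.14 ± 0.64 (limma, adjusted p = 0.193). In CD4 cells it stood at 3.28 and 2.11 TPM in the KO, against 5.25 and 3.52 TPM in WT. The KO libraries lay below the WT libraries in both cell types. The CD8 KO values rest on few reads, since mean coverage of the gene was 0.390 and 0.230 reads per base there, against 8.73 and 4.97 in CD8 WT.

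The other 6 assembly genes lay closer to their WT levels or varied more between replicates. The glucosyltransferase genes Alg6 and Alg8 and the gene Alg14, whose product helps add the second sugar, averaged 2.13 to 3.24 TPM over the 8 libraries. Their CD4 differences were -0.55 for Alg6, -0.53 for Alg8 and -1.27 for Alg14, with SEs of 0.64 to 0.82. Alg2, Alg3 and Alg12 encode mannosyltransferases, and their CD4 differences were -0.14, -0.36 and 0.41. Alg12 was the 1 assembly gene with both CD4 KO libraries above both WT libraries, at 11.8 and 11.6 TPM in the KO, against 6.79 and 10.7 TPM in WT.

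The enzymes that prepare mannose went in different directions. Dolichol-phosphate mannose synthase feeds mannose to the lumenal transferases, and its catalytic subunit gene Dpm1 stood at 106 and 94.7 TPM in CD4 KO cells, against 92.9 and 83.8 TPM in CD4 WT cells. Dpm2, which encodes a small membrane subunit, stood at 201 and 149 TPM in CD4 KO cells, against 140 and 121 TPM in CD4 WT cells, and at 169 and 208 TPM in CD8 KO cells, against 149 and 85.9 TPM in CD8 WT cells. Dpm2 was thus higher in both KO libraries of both cell types, with log2 differences of 0.41 ± 0.34 (limma, adjusted p = 0.575) and 0.73 ± 0.34 (limma, adjusted p = 0.353), the second being 0.33 without CD8 WT replicate 2. Dpm3, the subunit that holds Dpm1 at the membrane, overlapped between KO and WT in both cell types.

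Upstream of it, the 3 genes that supply mannose phosphate were lower in both CD4 KO libraries than in both CD4 WT libraries. This held for 36.5% of all genes tested. With median-of-ratios scaling it held for 2 of the 3, against 28.0% of all genes. Pmm2, the phosphomannomutase that turns mannose-6-phosphate into mannose-1-phosphate, stood at 93.5 and 75.9 TPM in CD4 KO cells, against 168 and 169 TPM in CD4 WT cells, a log2 difference of -0.99 ± 0.35 (limma, adjusted p = 0.197). In CD8 cells Pmm2 stood at 75.0 and 127 TPM in the KO, against 161 and 110 TPM in WT, and the groups overlapped. The CD4 differences were -0.85 for its relative Pmm1 and -0.54 for Mpi, the isomerase that makes mannose-6-phosphate from a glycolytic sugar. As a share of the TPM of all 41 genes, the 3 genes made up 5.06% and 4.97% in CD4 KO cells, against 8.55% and 7.71% in CD4 WT cells.

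The oligosaccharyltransferase genes were the most abundant group, at 36.0% to 41.1% of the TPM of the 41 genes in every library. In CD4 cells 7 of 7 were lower in the KO, with a median of only -0.17, which turned to 0.04 with median-of-ratios scaling, and in CD8 cells 3 of 7 were lower, with a median of 0.13. Without CD8 WT replicate 2 the CD8 median was -0.12, with 5 of 7 lower. Dad1, a small subunit gene with the highest TPM of the 41, stood at 248 and 198 TPM in CD4 KO cells, against 262 and 230 TPM in CD4 WT cells. Its mean coverage was below that of the catalytic subunit gene Stt3a in every library. In CD4 KO cells it was 59.7 and 47.7 reads per base, beside 178 and 194.5 for Stt3a. In CD8 cells Dad1 stood at 241 and 238 TPM in the KO, against 256 and 177 TPM in WT. Its differences of -0.15 ± 0.29 (limma, adjusted p = 0.836) and 0.17 ± 0.29 (limma, adjusted p = 0.807) were smaller than their errors. Ost4 and Rpn1, subunits without catalytic function, and Ddost, another such subunit, had CD4 differences from -0.17 to -0.02.

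Rpn2 and the catalytic subunit genes were the lower ones. Rpn2, a structural subunit, stood at 93.9 and 117 TPM in CD4 KO cells, against 204 and 215 TPM in CD4 WT cells, a log2 difference of -0.99 ± 0.33 (limma, adjusted p = 0.182). In CD8 cells it stood at 143 and 109 TPM in the KO, against 233 and 137 TPM in WT. The CD4 groups were well apart and the CD8 groups overlapped through CD8 WT replicate 2, without which the CD8 difference was -0.90, beside -0.52 with it. Stt3a, the catalytic subunit of the complex that works on proteins entering the ER, stood at 139 and 151 TPM in CD4 KO cells, against 220 and 227 TPM in CD4 WT cells (log2 difference -0.62 ± 0.27; limma, adjusted p = 0.283). It stood at 189 and 152 TPM in CD8 KO cells, against 216 and 211 TPM in CD8 WT cells, below WT in every library. The other catalytic gene, Stt3b, which serves sites that Stt3a misses, had lower means in the KO. Its differences were -1.06 ± 0.59 in CD4 cells (limma, adjusted p = 0.405) and -0.97 ± 0.59 in CD8 cells (limma, adjusted p = 0.463). It stood at 10.8 and 10.3 TPM in CD4 KO cells, against 32.3 and 16.3 TPM in CD4 WT cells. In CD8 cells it stood at 20.1 and 6.34 TPM in the KO, against 17.6 and 30.9 TPM in WT, with overlap. Without CD8 WT replicate 2 its CD8 difference was -0.58. Rpn2 shares its position with 4922505G16Rik and Mir3110.

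A ratio of genes taken within a library does not depend on how libraries are scaled. The level of Rpn2 over that of Rpn1 was 0.722 and 1.06 in CD4 KO cells, against 1.94 and 1.55 in CD4 WT cells. It was 1.08 and 0.889 in CD8 KO cells, against 1.97 and 2.16 in CD8 WT cells. The ratio was thus lower in 4 of 4 KO libraries than in 4 of 4 WT libraries, CD8 WT replicate 2 included. In CD8 cells both genes entered it, since Rpn1 was higher in both KO libraries. Rpn1 stood at 132.5 and 122.9 TPM in CD8 KO cells, against 118.7 and 63.6 TPM in CD8 WT cells. Its log2 difference was 0.55, or 0.10 without CD8 WT replicate 2. The pair Rpn2 and Rpn1 and the other pairs compared were chosen after the values were seen, 6 in all, and no test was made. The ratios of Stt3a over Stt3b and of Dad1 over Ddost overlapped between KO and WT in both cell types. Dpm2 over Dpm1 was 1.90 and 1.58 in CD4 KO cells, against 1.5 and 1.44 in CD4 WT cells, and 1.31 and 2.20 in CD8 KO cells, against 1.35 and 1.52 in CD8 WT cells, where the groups overlapped.

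In the step that reads protein folding, Prkcsh was the 1 gene of the 41 with an unadjusted p under 0.05 in both cell types and a higher level in the KO. Prkcsh encodes the beta subunit of glucosidase II, which removes inner glucoses from new glycoproteins, and keeps the enzyme in the ER. It stood at 96.8 and 85.8 TPM in CD4 KO cells, against 31.5 and 44.8 TPM in CD4 WT cells, a log2 difference of 1.25 ± 0.33 (limma, adjusted p = 0.117). Its level was 56.6 and 51.1 TPM in CD8 KO cells, against 28 and 26.8 TPM in CD8 WT cells, a log2 difference of 0.95 ± 0.33 (limma, adjusted p = 0.245). No KO library overlapped with a WT library of its cell type, and CD8 WT replicate 2 stood next to replicate 1 for this gene.

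Ganab, which encodes the catalytic alpha subunit of the same enzyme, differed less. It stood at 134 and 171 TPM in CD4 KO cells, against 107 and 130 TPM in CD4 WT cells, and at 140 and 115 TPM in CD8 KO cells, against 148 and 69.0 TPM in CD8 WT cells. Prkcsh over Ganab was 0.723 and 0.501 in CD4 KO cells, against 0.295 and 0.345 in CD4 WT cells, and 0.404 and 0.444 in CD8 KO cells, against 0.188 and 0.388 in CD8 WT cells. The ratio of the subunits was higher in both KO libraries of each cell type. Mogs, glucosidase I, overlapped between groups in both cell types, and Uggt1, which puts a glucose back on misfolded proteins, was lower in CD4 KO cells by -0.56 ± 0.40 (limma, adjusted p = 0.514).

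The Golgi genes had larger differences in the median than the ER genes. Of the 14 Golgi enzymes, 10 were lower in CD4 KO cells, with a median of -1.11, against -0.45 for the 27 ER and cytosolic enzymes. The 10 that were lower were the 10 for which both CD4 KO libraries lay below both WT libraries, against 36.5% of all genes tested. With median-of-ratios scaling the count was again 10, against 28.0% of all genes. In CD8 cells 10 of the 14, not all of them the same genes, were lower in the KO, beside 47.3% of all genes tested. The median was -0.51, beside 0.05 for all genes. Without CD8 WT replicate 2 it was -0.89, beside -0.07 for all genes. Both CD8 KO libraries lay below both WT libraries for 3 of the 14 and above them for 2, against 19.1% and 23.0% of all genes. The Golgi genes also span more of the genome, with a median span of 85.5 kb, against 14.3 kb for the ER and cytosolic genes. The values with the trend against span removed are given further on.

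The 4 Golgi mannosidase genes were all lower in CD4 KO cells, with a median of -1.27. Man1a, a mannosidase I that trims the chain down to the form on which branching starts, stood at 7.26 and 15.7 TPM in CD4 KO cells, against 34.9 and 40.0 TPM in CD4 WT cells, a log2 difference of -1.71 ± 0.44 (limma, adjusted p = 0.114). Man1a stood at 12.5 and 13.2 TPM in CD8 KO cells, against 30.4 and 33.8 TPM in CD8 WT cells, a log2 difference of -1.25 ± 0.44 (limma, adjusted p = 0.247). Every KO library lay below every WT library, in both cell types.

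Man1a2, the closely related mannosidase and the more abundant one, stood at 35.0 and 41.2 TPM in CD4 KO cells, against 57.8 and 57.5 TPM in CD4 WT cells. It stood at 33.5 and 26.8 TPM in CD8 KO cells, against 54.3 and 29.9 TPM in CD8 WT cells. Man1a over Man1a2 was 0.207 and 0.382 in CD4 KO cells, against 0.605 and 0.697 in CD4 WT cells, and 0.374 and 0.491 in CD8 KO cells, against 0.560 and 1.13 in CD8 WT cells. The ratio was below WT in every KO library, so the difference was unequal between the pair.

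Man2a1 and Man2a2 encode the mannosidase II enzymes that trim the chain after branching has begun. Man2a2 stood at 12.7 and 17.5 TPM in CD4 KO cells, against 46.2 and 39 TPM in CD4 WT cells, a log2 difference of -1.45 ± 0.47 (limma, adjusted p = 0.168). It stood at 29.8 and 14.9 TPM in CD8 KO cells, against 43.4 and 24.2 TPM in CD8 WT cells, and the groups overlapped. Man2a1 was weaker, with a mean of 5.51 TPM, and its differences were -1.10 ± 0.63 in CD4 cells (limma, adjusted p = 0.411) and 0.33 ± 0.63 in CD8 cells (limma, adjusted p = 0.824).

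Promoters of these genes were searched for letters known to bind factors of the ER stress response, which act on parts of the glycoprotein folding machinery. RefSeq windows of 300 bases (build GRCm38.p6, 250 before to 50 after the start) were at hand for 36 of the 41 genes, and those of Dpagt1, Alg2, Man1a2, Man2a2 and St3gal1 were not used here. The ER stress element, CCAAT and CCACG with 9 bases between them on either strand, was found in 1 of 36 genes, Alg12 (2.78%). It was in 0.137% of 27025 genes with a window, and in 0.18% of the 8355 tested genes that have a window. The ER stress element II, written ATTGG, any base and CCACG, was in 0 of 36, against 0.0444% of all genes and 0.0718% of the tested ones. The unfolded protein response element TGACGTGG was in 0 of 36, against 0.714% of all genes and 1.04% of the tested ones. CCAAT alone was in 19 of 36 genes (52.8%) and in 43.5% of the tested genes that have a window, and CCACG alone in 19 of 36 (52.8%) and in 51.7%. These matches are letters in a window and not binding sites. Shown are the promoters of Alg12, the gene with the full element (chr15:88819269-88819568, minus strand), of Prkcsh, which led the genes higher in both knockouts (chr9:22002738-22003037, plus strand), and of Man1a (chr10:54075688-54075987, minus strand). Of the genes below WT in both cell types, Man1a had the lowest p by limma in CD4 cells, and Alg9 in CD8 cells. Capitals mark CCAAT or CCACG on either strand.
Alg12: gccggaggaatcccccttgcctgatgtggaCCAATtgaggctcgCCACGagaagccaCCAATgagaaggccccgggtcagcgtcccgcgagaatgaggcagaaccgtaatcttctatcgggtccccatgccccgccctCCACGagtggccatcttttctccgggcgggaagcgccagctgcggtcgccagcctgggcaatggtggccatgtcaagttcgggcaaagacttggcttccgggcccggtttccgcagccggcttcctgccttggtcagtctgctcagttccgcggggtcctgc
Prkcsh: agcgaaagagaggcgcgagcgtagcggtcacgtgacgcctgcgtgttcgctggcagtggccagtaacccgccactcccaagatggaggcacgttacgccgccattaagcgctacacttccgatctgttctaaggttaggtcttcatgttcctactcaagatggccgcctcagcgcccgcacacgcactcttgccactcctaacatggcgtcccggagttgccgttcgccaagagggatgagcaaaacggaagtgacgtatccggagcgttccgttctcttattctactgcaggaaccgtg
Man1a: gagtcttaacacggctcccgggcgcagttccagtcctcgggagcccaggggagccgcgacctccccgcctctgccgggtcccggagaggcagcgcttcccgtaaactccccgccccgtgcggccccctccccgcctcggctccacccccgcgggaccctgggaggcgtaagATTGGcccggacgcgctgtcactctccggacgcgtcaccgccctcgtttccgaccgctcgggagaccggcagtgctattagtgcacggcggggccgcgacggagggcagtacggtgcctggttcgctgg
Alg12 holds 2 CCAAT and 2 CCACG, the leftmost pair forming the full element. Man1a holds 1 CCAAT, read on the other strand, and Prkcsh holds 0 of either. Alg12 itself differed by 0.41 ± 0.52 in CD4 cells (limma, adjusted p = 0.734) and 0.04 ± 0.52 in CD8 cells (limma, adjusted p = 0.977).

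**Figure D3:**
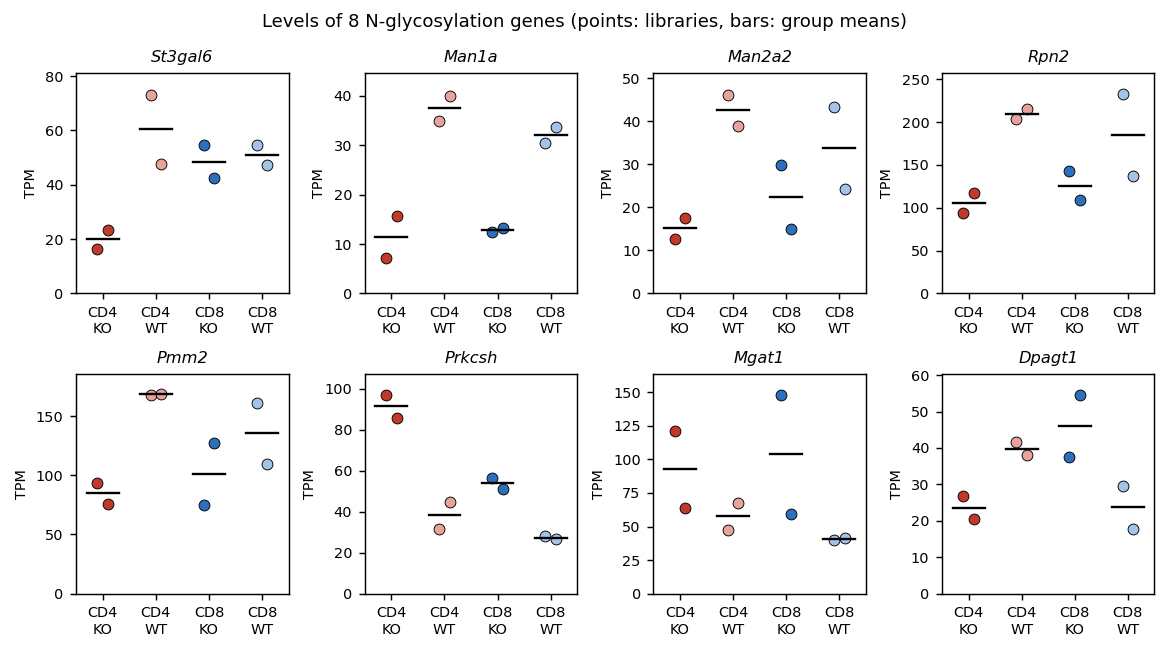
TPM of 8 of the genes in each library (points) with the group mean (bars), in CD4 KO, CD4 WT, CD8 KO and CD8 WT cells; each axis starts at 0 and has its own scale. St3gal6 is apart from WT in CD4 cells and not in CD8 cells, Man1a and Prkcsh are apart in both cell types, and Dpagt1 lies on opposite sides of WT in CD4 and CD8 cells.

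Branching begins with Mgat1, which adds the first branch and without which no complex N-glycan is made. Mgat1 stood at 121 and 64.1 TPM in CD4 KO cells, against 47.4 and 67.9 TPM in CD4 WT cells, and the groups overlapped. In CD8 cells it stood at 148 and 59.7 TPM in the KO, against 39.8 and 41.2 TPM in WT, a log2 difference of 1.20 ± 0.48 (limma, adjusted p = 0.288). In both cell types KO replicate 1 was far above the other KO library, so the mean rests largely on it.

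Mgat4a and Mgat5, which make further branches, had lower means in the KO of both cell types. Mgat4a stood at 2.90 and 3.83 TPM in CD8 KO cells, against 8.49 and 14.3 TPM in CD8 WT cells, a log2 difference of -1.47 ± 0.61 (limma, adjusted p = 0.302). In CD4 cells it stood at 1.79 and 5.49 TPM in the KO, against 10.6 and 7.41 TPM in WT, and so lay below WT in both cell types. Mgat5, which makes the branch that limits receptor clustering in mouse T cells, stood at 2.53 and 2.33 TPM in CD4 KO cells, against 7.71 and 7.43 TPM in CD4 WT cells (log2 difference -1.32 ± 0.72; limma, adjusted p = 0.391). In CD8 cells Mgat5 stood at 0.589 and 5.53 TPM in the KO, against 5.19 and 7.35 TPM in WT, with overlap. Mgat2, which adds the second branch, overlapped in both cell types. Mgat4a shares its position with 4930594C11Rik.

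Among the enzymes that cap the branches, the galactosyltransferase genes had means that were not lower in the KO. B4galt1, the main galactosyltransferase, stood at 171 and 183 TPM in CD4 KO cells, against 142 and 152 TPM in CD4 WT cells, a log2 difference of 0.26 ± 0.29 (limma, adjusted p = 0.679). B4galt1 stood at 267 and 284 TPM in CD8 KO cells, against 148 and 217 TPM in CD8 WT cells, a log2 difference of 0.61 ± 0.29 (limma, adjusted p = 0.350). Both KO libraries were above WT in each cell type. Its relative B4galt3 differed by 0.03 ± 0.32 in CD4 cells (limma, adjusted p = 0.976) and 0.35 ± 0.32 in CD8 cells (limma, adjusted p = 0.621), with overlap.

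The sialyltransferase genes were lower in CD4 KO cells. St3gal6, which caps galactose with sialic acid, had the lowest p of the 41 genes there, at 16.4 and 23.4 TPM in CD4 KO cells, against 73.0 and 47.8 TPM in CD4 WT cells. The log2 difference was -1.54 ± 0.37 (limma, adjusted p = 0.0980). St3gal6 stood at 54.8 and 42.3 TPM in CD8 KO cells, against 54.8 and 47.4 TPM in CD8 WT cells, with a log2 difference of -0.08 ± 0.37 (limma, adjusted p = 0.937). The KO and WT libraries were apart in CD4 cells and overlapped in CD8 cells, and the difference between the effects was 1.46 ± 0.53 (limma, unadjusted p = 0.0204, adjusted p = 0.701). St3gal1, which acts mainly on mucin-type O-glycans, stood at 6.23 and 6.82 TPM in CD4 KO cells, against 14.6 and 16.4 TPM in CD4 WT cells (log2 difference -1.13 ± 0.52; limma, adjusted p = 0.316). In CD8 cells St3gal1 stood at 4.46 and 10.7 TPM in the KO, against 9.14 and 8.92 TPM in WT.

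St6gal1, which adds sialic acid in another linkage and is strongly expressed in B cells too, varied widely between WT replicates. It stood at 36.5 and 38.2 TPM in CD4 KO cells, against 50.8 and 151 TPM in CD4 WT cells. In CD8 cells it stood at 88.4 and 23.3 TPM in the KO, against 104 and 56.5 TPM in WT. B cell genes summed to 15510 and 11430 TPM in CD4 WT cells and to 2017 and 25990 TPM in CD8 WT cells. In each cell type the WT replicate with more St6gal1 had the lower sum, and the part of B cells was not tested. Mean coverage of St6gal1 was 3.25 and 3.40 reads per base in CD4 KO cells, against 5.26 and 13.6 in CD4 WT cells. Fut8 adds the core fucose to N-glycans. It stood at 10.8 and 5.62 TPM in CD8 KO cells, against 25 and 27.6 TPM in CD8 WT cells, a log2 difference of -1.63 ± 0.52 (limma, adjusted p = 0.220). In CD4 cells Fut8 stood at 6.77 and 11.6 TPM in the KO, against 14.1 and 27.0 TPM in WT, so both KO libraries lay below WT in each cell type. These values rest on few reads. Mean coverage of Fut8 was 1.20 and 0.577 reads per base in CD8 KO cells, against 2.53 and 2.94 in CD8 WT cells. In CD4 cells it was 0.591 and 0.958 in the KO, against 1.40 and 2.38 in WT.

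Across the whole set, the libraries of KO and WT did not overlap in either cell type for 10 genes. The 5 that were below WT in both were Alg9, Stt3a, Man1a, Mgat4a and Fut8, which is 5 of the 23 below WT in CD4 cells and 5 of the 6 in CD8 cells. The 3 above WT in both were Dpm2, Prkcsh and B4galt1, which is 3 of the 6 in CD4 cells and 3 of the 8 in CD8 cells. Dpagt1 and Alg5 were the 2 below WT in CD4 and above it in CD8 cells, Alg5 by a narrow gap in CD4 cells (35.7 against 36.3 TPM). Among all genes tested, 11.1% were below WT in both cell types, 8.93% above in both, and 3.84% below in CD4 and above in CD8 cells. A further 1.91% were above in CD4 and below in CD8 cells. In CD4 cells 36.5% of all genes were below WT and 21.7% above, and in CD8 cells 19.1% and 23.0%. The counts of 5, 3 and 2 genes were thus near the background.

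Genomic span went along with these differences. Across the 41 genes, Spearman's rho between span and the log2 difference was -0.617 in CD4 cells and -0.603 in CD8 cells, beside -0.421 and -0.314 across the 11786 genes tested. These are correlations across genes that share the same 8 libraries, given as a description. In CD4 cells 7 of the 7 genes of 100 kb or more were lower in the KO, as were 88.5% of all genes of that span, and in CD8 cells 6 of the 7, beside 82.3% of all. After the trend of all genes against span was removed, the median of the 41 was -0.20 in CD4 cells and -0.06 in CD8 cells. That of the 14 Golgi genes was then -0.09 in CD4 cells, beside -0.32 for the 27 ER and cytosolic genes.

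With the trend removed, 9 of the 41 differences changed sign in CD4 cells and 11 in CD8 cells. Among those in CD4 cells were Mgat5 (0.18), Man2a1 (0.03), Uggt1 (0.32) and Man1a2 (0.40). Man1a, which spans 170 kb, had a log2 difference of -0.51 in CD4 and -0.44 in CD8 cells with the trend removed, and Fut8, which spans 238 kb, -0.60 in CD8 cells and 0.36 in CD4 cells. Man2a2, with 22.3 kb, kept -1.34 in CD4 cells. St3gal6, with 52.8 kb, had -1.05 there, and Pmm2, with 19.8 kb, -0.92. Prkcsh, with 11.2 kb, had 1.19 in CD4 and 0.68 in CD8 cells, and Alg9, with 68.4 kb, -1.85 in CD8 cells. Whether RNA quality or another feature of these libraries goes along with the trend was not tested.

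**Figure D4:**
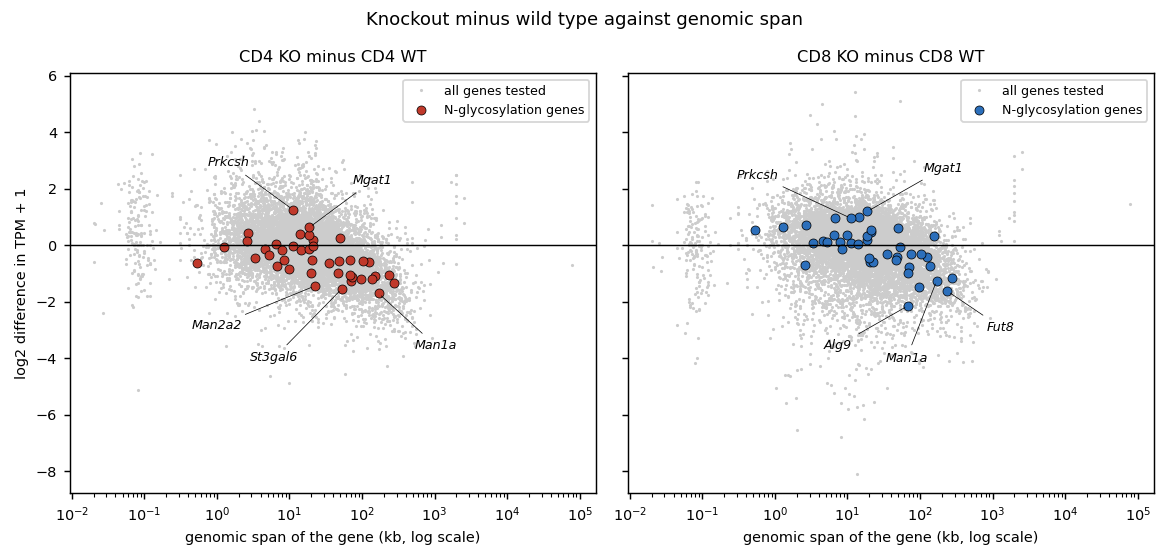
Log2 difference between KO and WT against genomic span (kb, log axis) for all genes tested (grey) and the 41 N-glycosylation genes (coloured), in CD4 cells and CD8 cells; the horizontal line marks no difference. In both panels genes of 100 kb or more lie mostly below the line, and Prkcsh lies above it.

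None of the 41 genes passed between the WT cell types. By limma 0 were called between CD8 WT and CD4 WT cells, against 0.195% of all genes, and 0 had an unadjusted p under 0.05, against 8.67%. In CD8 WT cells 32 of 41 were lower, beside 67.0% of all genes, with a median of -0.22, beside -0.26 for all genes, and the median turned to 0.076 with median-of-ratios scaling. Both CD8 WT libraries lay below both CD4 WT libraries for 11 genes and above them for 1, against 24.8% and 9.53% of all genes. The lowest p was that of Alg3, which starts the lumenal mannose additions. It stood at 35.9 and 12.4 TPM in CD8 WT cells, against 66.8 and 34.7 TPM in CD4 WT cells, a log2 difference of -1.15 ± 0.53 (limma, adjusted p = 0.590).

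The next genes by p in that comparison were Dpagt1, Alg2 and Mpi, with log2 differences of -0.76, -1.01 and -0.75. Alg2 stood at 8.41 and 6.02 TPM in CD8 WT cells, against 11.7 and 20.2 TPM in CD4 WT cells. In the KO cells Alg2 was at 3.63 and 16.3 TPM in CD8 and 14.1 and 13.6 TPM in CD4 cells. Mpi stood at 16.8 and 6.41 TPM in CD8 WT cells, against 22.7 and 14.7 TPM in CD4 WT cells, and its KO levels were 8.73 and 10.1 TPM in CD8 and 11.3 and 13.4 TPM in CD4 cells. For Alg3 the KO levels were 19.0 and 27.5 TPM in CD8 and 40.4 and 34.6 TPM in CD4 cells. The WT comparison uses libraries that also serve the knockout comparisons, and for all 4 of these genes the lowest WT value was that of the library that stood apart. Without it the log2 differences were -0.41 for Alg3, -0.41 for Dpagt1, -0.80 for Alg2 and -0.11 for Mpi.

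A wider list of 78 further glycosylation genes, covering dolichol, nucleotide sugars, sugar transporters, folding lectins, other transferases and O-glycans, held 72 that were tested. In CD4 cells 25 were higher and 47 lower in the KO, beside 58.0% of all genes lower. Of the 72, 3 were called, against 0.713% of all genes. Calr and Gmds were known from earlier results of these data when the list was made, so nothing is read from this count. Calr, the lectin chaperone calreticulin, rose in CD4 KO cells, to 859 and 716 TPM, against 151 and 197 TPM in CD4 WT cells (log2 difference 2.18 ± 0.33; limma, adjusted p = 0.0319). Galnt10, which starts mucin-type O-glycans, fell to 9.39 and 6.59 TPM in CD4 KO cells, against 52.1 and 46.4 TPM in CD4 WT cells (log2 difference -2.50 ± 0.46; limma, adjusted p = 0.0483). Gmds makes the precursor of GDP-fucose, the donor that Fut8 uses. It fell in CD4 KO cells to 1.36 and 2.08 TPM, against 25.5 and 31.7 TPM in CD4 WT cells (log2 difference -3.45 ± 0.55; limma, adjusted p = 0.0343).

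In CD8 cells 37 of the 72 were higher and 35 lower, beside 47.3% of all genes lower. Of the 72, 1 was called, against 0.297% of all genes. That gene was Gmds, known beforehand here too, which fell to 0.440 and 0 TPM in CD8 KO cells, against 23.6 and 15.9 TPM in CD8 WT cells (log2 difference -4.09 ± 0.55; limma, adjusted p = 0.0248). Tsta3, the next enzyme on that route, differed by 0.01 ± 0.44 in CD4 cells (limma, adjusted p = 0.993) and 0.20 ± 0.44 in CD8 cells (limma, adjusted p = 0.852). The next genes by p in CD8 cells were Lman2, a lectin of the early secretory pathway, at 246 and 215 TPM in the KO, against 124 and 66.4 TPM in WT, and B3gnt2, which extends lactosamine chains, at 29.98 and 75.4 TPM in the KO, against 156 and 173 TPM in WT. Neither passed (limma, adjusted p = 0.162 and 0.173). Gmds spans 519 kb and Galnt10 142 kb, and with the trend against span removed none of Calr, Gmds and Galnt10 was called, with an adjusted p of 0.0973, 0.237 and 0.231 in CD4 cells and of 0.0955 for Gmds in CD8 cells (limma).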

How the data were processed

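Libraries were prepared with a SMARTER mRNA kit from TRIzol-extracted RNA, per the labels' protocols, and reads were aligned with HISAT to mm10, per the submitters' processing notes. The sources used here name no program, version or strand setting for the gene tables, and the labels name DESeq2 for the authors' own differential expression. The authors deposited a TPM value for each gene, per the file headers, a length-corrected share of transcripts with the same total in every library. Per the file headers the authors also computed FPKM, fragments per length and depth, used here in an alternative. Coverage per gene was deposited by the authors as well, per the file headers, and with FPKM gives the aligned bases. TPM keeps no read counts, so no counting interval is given.

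TPM of rows with the same symbol was summed. A filter at 1 TPM, as the mean of the 8 libraries, left 11786 genes, which were fitted on log2(TPM + 1) with limma 3.58.1 (R 4.3.3) with an intensity trend and 1 mean per group. All 4 groups shared the spread, with 4 residual and 5.68 prior degrees of freedom. Benjamini-Hochberg adjustment ran over all genes tested, and the 41 genes were read from that fit. The added 1 TPM makes log2 differences of genes with low levels too small. The fit was tested on simulated data. The 41 genes and the wider list were chosen with earlier results of these data known, and Calr and Gmds were among those results. Named were the 8 genes with the lowest p in each knockout comparison, the 4 with the lowest p in the WT comparison and for the difference of the effects, the most abundant gene of each role, and of the wider list the called genes and the 3 with the lowest p; other genes were named after their values were seen. Alternatives were other pseudocounts, filters, scalings and units, library weights, the groups compared alone, a replicate block, the trend against span removed (a local regression over 0.3 of the genes) and leaving out each library. In the marker lists Hbb-bs was matched as Beta-s, and in the wider list Tmem258 as 1810006K21Rik. Of the wider list Uggt2, Man1c1, Mgat3, B4galt2, B4galt6 and Galnt3 were below the filter.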

Additional observations from a re-analysis of the deposited data

How the results depend on the processing

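Alternatives were followed for the 24 differences chosen by lowest p. Of their 450 values, 434 stayed on the same side of the threshold, 16 passed it newly and 0 changed sign. Other differences did change sign. Over the 41 genes, 7 did so in CD4 and 3 in CD8 cells with median-of-ratios scaling, and 9 and 11 with the span trend removed, among them Fut8 in CD4 cells (0.36) and St3gal6 in CD8 cells (0.11). Without CD8 WT replicate 2, 10 did so in CD8 cells, and Dad1 was then at -0.097. Of the 41 genes, 6 were called in CD4 cells with library weights (St3gal6, Prkcsh, Man1a, Rpn2, Man2a2 and Pmm2). Leaving out single libraries gave 0 to 3 called genes in CD4 cells, 0 to 3 in CD8 cells, 0 to 2 between the WT cell types and 0 to 2 for the difference of the effects. The CD4 calls were Prkcsh, Rpn2 and St3gal6 without CD8 WT replicate 1 (adjusted p = 0.0371, 0.0410 and 0.0398) and without CD8 WT replicate 2 (adjusted p = 0.0369, 0.0393 and 0.0393), by limma. Without CD8 WT replicate 1, which leaves the library that stood apart as the lone CD8 WT sample, assumed to vary like the other groups, Alg5, Dpm2 and Rpn1 were called in CD8 cells, Alg3 and Alg5 between the WT cell types, and Alg5 and Dpagt1 for the difference of the effects. The count at an unadjusted p under 0.05, 7 in CD4 cells, was 12 with library weights and 12 with the compared groups alone, and 4 to 9 without single libraries. In CD8 cells the count of 8 was 4 with the groups alone, 1 with weights, 5 with no intensity trend, 4 with the span trend removed, and 4 to 11 without single libraries. The median log2 difference in CD4 cells, -0.54, was -0.33 with a pseudocount of 5, -0.37 with median-of-ratios scaling, -0.35 on FPKM, -0.20 with the span trend removed, and -0.58 to -0.39 without single libraries. In CD8 cells the median of 0.04 ran from -0.39 to 0.34 without single libraries. Between the WT cell types the median of -0.22 was 0.076 with median-of-ratios scaling and 0.046 with the span trend removed, and ran from -0.475 to -0.018 without single libraries. With the replicate number as a block 0 of the 41 genes were called in each of the comparisons, and the count at an unadjusted p under 0.05 was 6 in CD4 and 7 in CD8 cells. Deviations of same-numbered libraries had correlations from -0.04 to 0.09 between groups. These cannot show whether replicate numbers pair the libraries, since technical spread and the library that stood apart also enter them. Over all genes the 84 calls in CD4 cells became 29 with the replicate block, 1260 with library weights, 243 with the compared groups alone, 141 with median-of-ratios scaling, 21 with the span trend removed, 5 with no intensity trend and 0 with no filter. Without CD8 WT replicate 1 or 2 there were 758 or 768, and 0 to 3 without another library. The 35 calls in CD8 cells became 0 with weights, with the groups alone and with no filter, and 15 with no intensity trend; without CD8 WT replicate 1 there were 1842, without replicate 2 37, and without another library 0. Between the WT cell types the 23 calls became 15 with weights, 4 with no intensity trend, 1 with no filter and 0 with the groups alone, 1629 without CD8 WT replicate 1, 72 without CD8 WT replicate 2 and 0 to 12 without another library. For the difference of the effects the 0 calls became 1148 without CD8 WT replicate 1. The CD4 differences are the same without either CD8 WT library, and only the shared spread differs.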
